A study of Mus musculus with 6 samples.

Results

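The secreted frizzled-related proteins and Wif1 are extracellular inhibitors of Wnt signalling, and the family is represented here by 6 genes: Sfrp1, Sfrp2, Frzb (also named Sfrp3), Sfrp4, Sfrp5 and Wif1. They were chosen by name out of 23594 genes in the deposited table, by a rule that uses no value, and all 6 passed the filter on low counts that left 20114 genes to test. RNA came from the apical side of the furcation development region (FDR) in mandibular first molars of C57BL/6 mice aged 4.5 days, taken by laser capture from 12 µm frozen sections. The furcation is the place where the roots of a molar separate. There were 3 libraries from control mice, labelled wild type, and 3 from Lhx6-/- mice, each combining tissue of 8 molars. Lhx6-/- mice were homozygous for an Lhx6-CreER knock-in allele that abolishes the function of the Lhx6 gene in every cell of the animal. Lhx6 encodes a LIM-homeodomain transcription factor. No drug treatment is given for either group. The study's methods describe littermate controls and 3 pairs of samples. Neither the methods nor the labels say which libraries form a pair or whether libraries share animals, so p-values measure the spread between these libraries.

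Wnt proteins are secreted ligands that bind Frizzled receptors and Lrp5 or Lrp6 at the cell surface, which in the canonical pathway stabilises beta-catenin and switches on target genes. The Sfrp proteins carry a cysteine-rich domain related to the ligand-binding part of Frizzled and can hold Wnt proteins away from their receptors, while Wif1 binds Wnt proteins through an unrelated domain, the WIF domain. Wnt signalling is needed in dental mesenchyme for odontoblast differentiation and for growth of the root. Secreted inhibitors act outside the cell that makes them, so a transcript level shows where an inhibitor is made and not where it acts.

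The genes lie on 6 different chromosomes. In mm10 coordinates of GENCODE vM21, Sfrp1 is at chr8:23411502-23449632 on the plus strand, Sfrp2 at chr3:83766321-83774316 on the plus strand, and Frzb at chr2:80411970-80447625 on the minus strand. Sfrp4 is at chr13:19623104-19632994 on the plus strand, Sfrp5 at chr19:42197971-42202252 on the minus strand, and Wif1 at chr10:121033960-121100650 on the plus strand. All values below are totals over the exons of a gene. They do not separate isoforms.

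The 250 bases before the start of Sfrp2 and of Sfrp5 are shown, because these genes had the highest and the lowest fold change of the family. Both were read from RefSeq promoters of build GRCm38.p6, which held an entry for 4 of the 6 genes (Sfrp2, Frzb, Sfrp5 and Wif1). The Sfrp2 window is chr3:83766071-83766320 on the plus strand and the Sfrp5 window is chr19:42202253-42202502 on the minus strand, each written 5′ to 3′, with a motif match in capitals.
Sfrp2: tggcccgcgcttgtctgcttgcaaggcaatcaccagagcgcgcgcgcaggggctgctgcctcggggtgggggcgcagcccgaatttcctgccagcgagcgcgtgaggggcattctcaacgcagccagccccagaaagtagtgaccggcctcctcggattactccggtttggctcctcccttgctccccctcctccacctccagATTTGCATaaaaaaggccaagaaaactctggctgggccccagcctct
Sfrp5: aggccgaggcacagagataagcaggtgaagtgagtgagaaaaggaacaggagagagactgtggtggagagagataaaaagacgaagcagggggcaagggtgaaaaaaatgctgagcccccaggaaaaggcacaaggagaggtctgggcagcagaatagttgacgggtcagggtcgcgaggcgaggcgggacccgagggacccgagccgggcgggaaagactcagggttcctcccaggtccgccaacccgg
The GC content was 63.6% for Sfrp2, with 16 CpG dinucleotides, and 59.6% for Sfrp5, with 13, against medians of 52.4% and 6 over 32851 promoters of the same length. Letters were searched on both strands. TAATTA, a core read by LIM-homeodomain proteins, and ATCAAAG, a core read by the TCF and LEF factors of the Wnt pathway, had no match in the 4 windows, and occur in 4.84% and 3.205% of all promoters. TATAAA, the letters of the TATA box, had a match in the Wif1 window and in 12.37% of all promoters. The Wif1 match was read on the other strand, and its first base lies 232 bases before the start. The Frzb and Wif1 windows (chr2:80447397-80447646 and chr10:121033754-121034003) overlap the gene coordinates given above, so part of each lies inside the gene as placed there. The capitals in Sfrp2 mark a match to the octamer ATGCAAAT, read on the other strand, whose first base lies 47 bases before the start. The octamer occurs in 1.601% of all promoters, and it was searched after the sequence had been read. A match describes letters only, and a missing match says nothing of whether a factor binds.

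The deposited totals ran from 60132323 to 76157433 estimated counts per library. Levels are given as counts per 1000000 (CPM), scaled by edgeR's TMM factors, which lay between 0.977 and 1.04. Each of the 6 genes had at least 778 estimated counts in every library, so the spread between libraries, and not counting, limited the precision. Lhx6, the targeted gene, stood at 27.8, 18.2 and 21.9 CPM in replicates 1, 2 and 3 of control. In those of Lhx6-/- it stood at 12.8, 9.82 and 10.5 CPM, so the groups did not overlap. This is 0.488 times the control level, so transcript counted to the gene remained in Lhx6-/- tissue. Markers of dental mesenchyme summed to between 68640 and 89100 CPM, and markers of enamel-forming ameloblasts, an epithelial cell type, to between 115000 and 146300 CPM, so the captured tissue held both. The sum of 12 dental epithelium markers was 1390 to 2195 CPM in control and 995 to 1175 CPM in Lhx6-/- libraries. It was highest in control replicate 2. The sum of 8 endothelial markers was 292 to 304 CPM in control and 338 to 392 CPM in Lhx6-/- libraries, and that of 6 red blood cell markers was 2969 to 3701 and 1592 to 2329 CPM. The groups did not overlap in these 3 sums, nor in that of odontoblast markers (7835 to 8304 and 8544 to 9553 CPM). The 12 mesenchyme markers were summed again without Col1a1, which held most of their sum, a step chosen after seeing the data, and the remaining 11 made 3769 to 3804 CPM in control and 4277 to 4617 CPM in Lhx6-/- libraries, with no overlap. The groups overlapped in the sums of all 12 mesenchyme markers and of the ameloblast, follicle and periodontal ligament, osteoblast, cartilage, leukocyte, muscle, and nerve and glia markers. Together, 4 Y-linked genes reached 17.4, 58.0 and 14.6 CPM in control and 55.1, 92.1 and 88.5 CPM in Lhx6-/- libraries. The study's methods state that male and female mice were used. The log2 fold change of Lhx6 was -1.04 (adjusted p = 0.0210 from edgeR). With the level of the Y-linked genes as a covariate, added after seeing the data, it was -0.58 (adjusted p = 0.110 from edgeR). The adjusted p of Lhx6 exceeded 0.05 in 4 of 16 alternative fits. In bulk tissue, fewer cells of a type and less RNA per cell cannot be told apart.

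Sfrp2 and Frzb had higher transcript levels in the Lhx6-/- FDR, Sfrp5 was lower without passing the adjusted test, and Sfrp1, Sfrp4 and Wif1 had log2 fold changes of 0.16 to 0.17. Of the 6 genes, 2 (Sfrp2 and Frzb, both higher) had an adjusted p under 0.05 in edgeR's quasi-likelihood test, where 0.403% of all tested genes did, 0.323% on the higher and 0.0795% on the lower side. At least 1.5-fold change with an unadjusted p under 0.05, the rule in the study's methods, was met by 3 genes, Sfrp2 and Frzb higher and Sfrp5 lower, and by 3.28% of all tested genes (1.58% higher and 1.71% lower). An unadjusted p under 0.05, whatever the fold, was reached by 4 members and by 9.81% of all tested genes. The groups of libraries did not overlap in 3 genes (Sfrp2, Frzb and Wif1, all higher), and in 15.5% of all tested genes, 7.86% on the higher and 7.68% on the lower side. The family was picked at a time when results of these data, those of Sfrp2 and Frzb included, were known, so these counts describe the family and are not independent evidence about it. The median log2 fold change of the 6 genes was 0.17, against -0.002 over all tested genes. Without control replicate 3, 0 members passed edgeR's adjusted test and 3 had an unadjusted p under 0.05. The same counts came with the level of dental epithelium markers as a covariate. Over all genes those fits called 12 of 21040 and 16 of 20114, where the main fit called 81 of 20114.

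**Figure D1:**
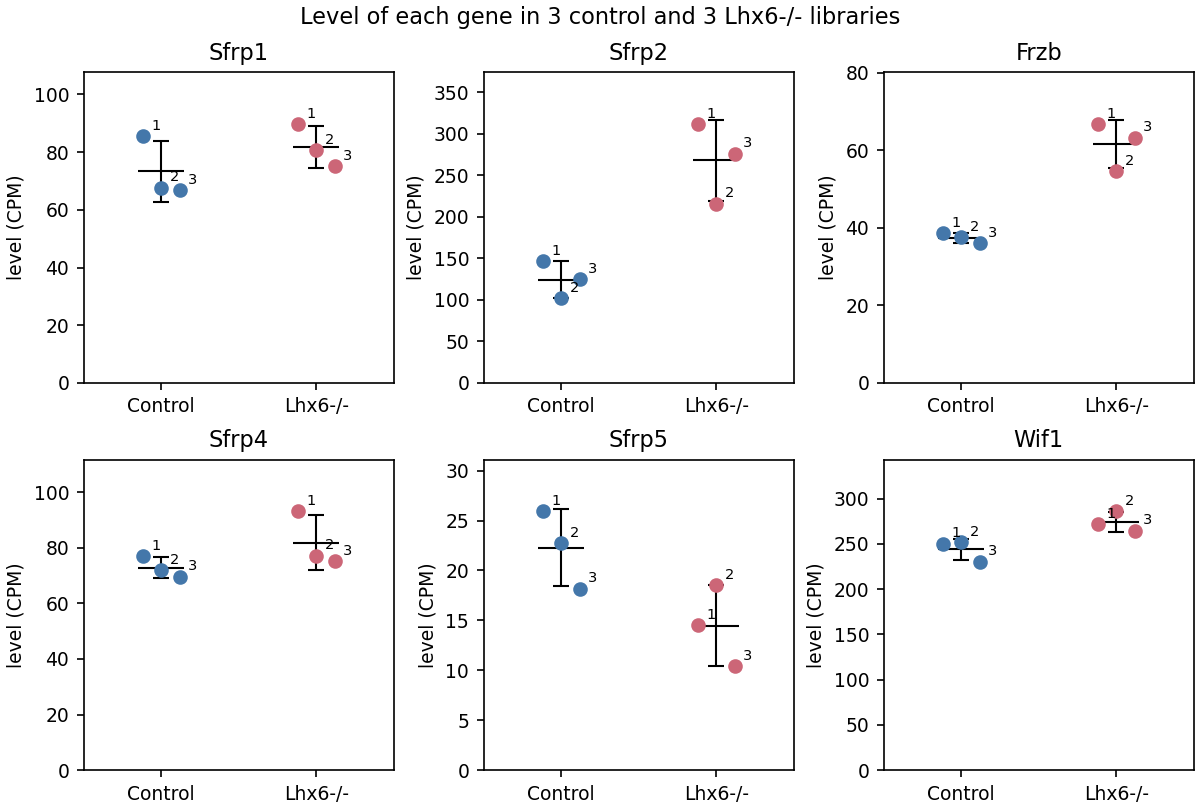
Level of each of the 6 genes in CPM (y axis, from 0) in the 3 control and 3 Lhx6-/- libraries (x axis). Points are libraries, marked with their replicate number, long bars are means and whiskers are 1 SD. Sfrp2 lies between 102 and 146 CPM in control and between 216 and 312 CPM in Lhx6-/- libraries, while the Sfrp5 groups overlap.

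Sfrp2, a secreted inhibitor made in many embryonic and adult mesenchymes, was measured at 146, 102 and 125 CPM in control replicates 1, 2 and 3. In Lhx6-/- replicates 1, 2 and 3 it stood at 312, 216 and 276 CPM. The lowest Lhx6-/- library, replicate 2, lay above the highest control library, replicate 1. The means were 124 ± 22.2 and 268 ± 48.4 CPM (SD, n = 3 libraries each), so Sfrp2 rose 2.15-fold in Lhx6-/- tissue. The log2 fold change was 1.11 with a standard error of 0.17 and a 95% interval of 0.72 to 1.49 (adjusted p = 0.0429 from edgeR, adjusted by Benjamini and Hochberg's method over all tested genes). This adjusted p lies near the threshold. It exceeded 0.05 in 9 of 16 alternative fits, among them those without control replicate 2 (0.0617), control replicate 3 (0.157), Lhx6-/- replicate 1 (0.0905) or Lhx6-/- replicate 3 (0.165), all from edgeR, while the log2 fold change was positive in 16 of 16, between 0.72 and 1.54. With the level of dental epithelium markers as a covariate it was 0.72 (standard error 0.13, adjusted p = 0.102 from edgeR), so the value moved by more than 1.5 times with a marker list that itself differed between the groups. Of the 12 dental mesenchyme markers, 10 were higher by sign, with a median of 0.18 on the log2 scale. The groups did not overlap for 7 that were higher and 1 that was lower, against 7.86% and 7.68% of all tested genes. Dlx1 had an adjusted p under 0.05 in edgeR. DESeq2 called 3 of the markers and limma 1, where over all genes they called 299 of 23594 and 82 of 20114. The part of the mesenchyme markers in the Sfrp2 value was not tested.

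Frzb, first described in developing cartilage, had the smallest relative spread of the family in control tissue. Its level was 38.7, 37.5 and 36.0 CPM in control replicates 1, 2 and 3. In Lhx6-/- replicates 1, 2 and 3 it was 66.8, 54.6 and 63.3 CPM. All 3 Lhx6-/- libraries lay above all 3 control libraries, and replicate 2 was again the lowest of the Lhx6-/- libraries, as for Sfrp2. Frzb rose 1.64-fold, from 37.4 ± 1.34 to 61.5 ± 6.25 CPM (SD, n = 3 libraries each). Its log2 fold change of 0.72 had a standard error of 0.08 and a 95% interval of 0.53 to 0.90 (adjusted p = 0.00576 from edgeR). Among all tested genes it had rank 7 by p, and Sfrp2 had rank 78. It was above 0.05 after adjustment in 2 of 16 alternative fits, without control replicate 3 (log2 fold change 0.69, adjusted p = 0.0623 from edgeR) and with the epithelium covariate (0.65, adjusted p = 0.0806 from edgeR). The 8 endothelial markers were all higher in Lhx6-/- tissue by fold change. In 6 of them the groups did not overlap, where 7.86% of all tested genes were higher with no overlap. Of the 8, Cldn5 alone had an adjusted p under 0.05 in edgeR, DESeq2 called 2 and limma 1. Without control replicate 3 or with the epithelium covariate edgeR called 0, and 5 and 4 had an unadjusted p under 0.05. Over all genes those fits called 12 and 16, where the main fit called 81 and DESeq2 299. Of 6 cartilage markers, 5 were higher by sign. Col9a1, a chain of collagen IX, rose from 0.948 to 4.97 CPM (5.23-fold, adjusted p = 0.00576 from edgeR), and Hapln1, which links proteoglycans to hyaluronan, met the fold and p rule at 6.03 and 9.47 CPM, while Col2a1, the main collagen of cartilage, was at 965 and 757 CPM. The part of the endothelial, cartilage and mesenchyme markers in the Frzb value was not tested.

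Sfrp5 was the only member with a lower mean in Lhx6-/- tissue. It encodes a secreted inhibitor known from the embryonic endoderm. Control replicates 1, 2 and 3 had 25.9, 22.8 and 18.2 CPM of Sfrp5. Lhx6-/- replicates 1, 2 and 3 had 14.5, 18.5 and 10.5 CPM. The groups overlapped, since Lhx6-/- replicate 2 lay just above control replicate 3. The means of 22.3 ± 3.90 and 14.5 ± 4.02 CPM (SD, n = 3 libraries each) gave a log2 fold change of -0.62 (standard error 0.21, 95% interval -1.11 to -0.14), a 1.54-fold lower level. The p was 0.0181 before and 0.374 after adjustment (edgeR), so the difference did not pass the adjusted test. It passed in 1 of 16 alternative fits, with the replicate number as a block (adjusted p = 0.0395 from edgeR). No source says that this number marks a pair. The sign was negative in 16 of 16 alternative fits. The fold and p rule was no longer met without control replicate 1 (log2 fold change -0.50), control replicate 2 (-0.61), Lhx6-/- replicate 1 (-0.62) or Lhx6-/- replicate 3 (-0.43), with adjusted p of 0.424, 0.603, 0.737 and 0.371 from edgeR. Nor was it met with the epithelium covariate or with the Y-linked covariate, added after seeing the data (-0.67, adjusted p = 0.512 from edgeR). The 12 dental epithelium markers were all lower in Lhx6-/- tissue by fold change, their median being -0.64 on the log2 scale, and 6 of them met the fold and p rule. None had an adjusted p under 0.05 from edgeR or limma and 5 did from DESeq2, with 7 under 0.05 unadjusted in each. Over all genes DESeq2 called 299 of 23594, and 9.81% had an unadjusted p under 0.05 in edgeR. With the level of the epithelium markers as a covariate the log2 fold change of Sfrp5 was -0.58 (standard error 0.36, adjusted p = 0.759 from edgeR).

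Wif1, the member outside the Sfrp group, was close to even between the genotypes, with separate groups. In control replicates 1, 2 and 3 it stood at 250, 252 and 230 CPM. In Lhx6-/- replicates 1, 2 and 3 it stood at 272, 286 and 265 CPM. The lowest Lhx6-/- library was above the highest control library, but the distance was small, with means of 244 ± 11.8 and 274 ± 10.8 CPM (SD, n = 3 libraries each). The log2 fold change was 0.17 (standard error 0.07, 95% interval 0.01 to 0.33), which is 1.12-fold, and the adjusted p was 0.484 from edgeR.

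Sfrp1 and Sfrp4 did not differ between the genotypes beyond the spread of the libraries. Sfrp1, a broadly expressed inhibitor, had 85.5, 67.7 and 66.9 CPM in the 3 control libraries, in order of replicate number, and 89.8, 80.6 and 75.1 CPM in the 3 Lhx6-/- libraries. Control replicate 1 lay above 2 of the Lhx6-/- libraries. Its log2 fold change was 0.16 (standard error 0.10, 95% interval -0.07 to 0.38, adjusted p = 0.700 from edgeR), so the interval runs from a 0.954-fold to a 1.30-fold level. The sign turned negative with the epithelium covariate (-0.02, adjusted p = 0.982 from edgeR). Sfrp4, known from bone, where its loss thins cortical bone, was at 77.1, 72.0 and 69.6 CPM in control replicates 1, 2 and 3. In Lhx6-/- replicates 1, 2 and 3 it was at 93.1, 77.2 and 75.3 CPM. Its groups overlapped as well, and its log2 fold change was 0.17 (standard error 0.09, 95% interval -0.02 to 0.36, adjusted p = 0.591 from edgeR). A p above the threshold does not show that these levels were equal.

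**Figure D2:**
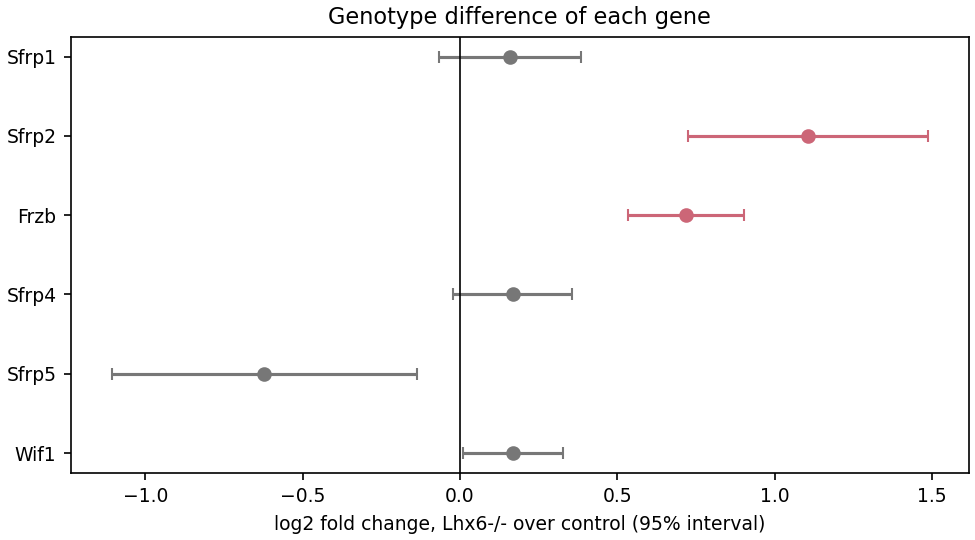
Log2 fold change of each gene, Lhx6-/- over control (x axis), with its 95% interval from edgeR. Red points have an adjusted p under 0.05 and grey points do not. The intervals of Sfrp2 (0.72 to 1.49) and Frzb (0.53 to 0.90) lie above 0, that of Sfrp5 lies below 0, and those of Sfrp1 and Sfrp4 cross it.

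Within each genotype the libraries kept some order across the genes. Control replicate 1 had the highest control level in 5 of the 6 genes, all but Wif1, and control replicate 3 had the lowest in 5, all but Sfrp2. Lhx6-/- replicate 1 had the highest Lhx6-/- level for Sfrp1, Sfrp2, Frzb and Sfrp4, and replicate 3 the lowest for Sfrp1, Sfrp4, Sfrp5 and Wif1. Replicate 2 had the highest level for Sfrp5 and Wif1 but the lowest for Sfrp2 and Frzb. The genes within a library share its tissue pool and its scaling, so these ranks are not independent of each other.

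To compare genes with each other, CPM were divided by the length of the joined exons in kilobases. On this scale Wif1 and Sfrp2 stood well above the other members. The control means were 100 ± 4.86 CPM per kilobase for Wif1, 57.8 ± 10.3 for Sfrp2, 17.4 for Sfrp4, 16.8 for Sfrp1, 11.7 for Sfrp5 and 11.6 for Frzb. Wif1 ranked 256 and Sfrp2 302 among 19724 tested genes with a length, by mean level per kilobase over all 6 libraries of both genotypes, where Sfrp5 was the lowest member at rank 3433. In all 3 control libraries Wif1 came first and Sfrp2 next. Sfrp1 and Sfrp4 changed places in control replicate 1, and Sfrp5 and Frzb in control replicate 3, so these neighbours cannot be ordered.

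In Lhx6-/- libraries the order at the top was different. Sfrp2 reached 124 ± 22.5 CPM per kilobase and Wif1 113 ± 4.46 (SD, n = 3 libraries each). Sfrp2 came first in replicates 1 and 3, and Wif1 in replicate 2. The level of Sfrp2 over that of Wif1, per kilobase, was 0.660, 0.457 and 0.611 in control replicates 1, 2 and 3, and 1.29, 0.851 and 1.18 in Lhx6-/- replicates 1, 2 and 3. Sfrp5 was last in all 3 Lhx6-/- libraries at a mean of 7.62 CPM per kilobase, while Frzb, at 19.0, moved up to places 4, 5 and 3.

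**Figure D3:**
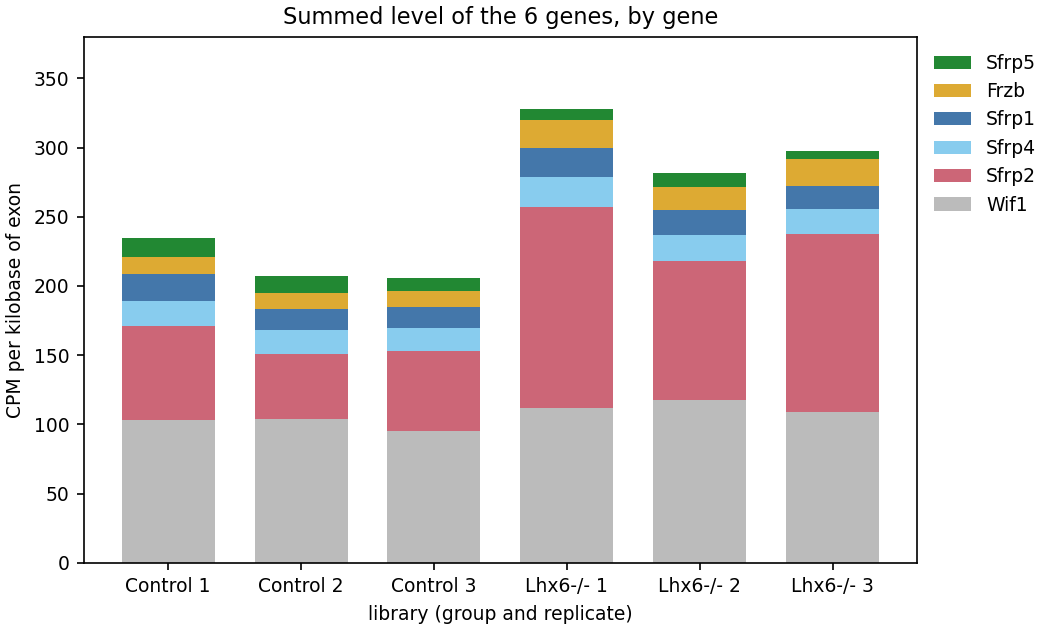
Level of the 6 genes in CPM per kilobase of exon (y axis), stacked by gene, in each of the 6 libraries (x axis). The sum is 206 to 235 in control and 282 to 328 in Lhx6-/- libraries, and the Sfrp2 segment (red) is the one that differs most.

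Added together, the 6 genes made 216 ± 16.3 CPM per kilobase in control and 302 ± 23.5 in Lhx6-/- tissue (SD, n = 3 libraries each). The sums did not overlap, at 206 to 235 against 282 to 328. Of the difference of 86.4 between the means, Sfrp2 made up 66.6 (77.1%), Wif1 12.4 (14.4%) and Frzb 7.45 (8.62%). Sfrp4 and Sfrp1 added 2.48% and 2.25%, and the contribution of Sfrp5 was negative, at -4.11 (-4.76%). The share of Sfrp2 in the sum was 26.7 ± 3.35% in control and 40.9 ± 4.67% in Lhx6-/- tissue, and that of Wif1 was 46.7 ± 3.07% and 37.6 ± 3.92%. Sfrp5 made 5.42% of the control sum and 2.55% of the Lhx6-/- sum. The sum weighs transcripts and not their strength as inhibitors.

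Ratios within a library do not depend on how libraries are scaled, and they were used to describe by how much Sfrp2 differed more than each other member. Sfrp2 had the highest fold change of the family in these same data, so positive differences follow from that choice. All 5 ratios share the Sfrp2 counts and are not independent of each other. The count ratio of Sfrp2 to Wif1 was 0.585, 0.405 and 0.542 in control replicates 1, 2 and 3 and 1.15, 0.754 and 1.04 in Lhx6-/- replicates 1, 2 and 3. The Lhx6-/- ratios were all above the control ratios, with a log2 difference of 0.94. The difference was 0.94 against Sfrp1 and 0.94 against Sfrp4, also with separate groups. Against Sfrp5 the ratio was 5.65, 4.48 and 6.87 in control and 21.5, 11.7 and 26.4 in Lhx6-/- replicates, a log2 difference of 1.75 or 3.36-fold. This was the widest gap in the family. Against Frzb it was 3.78, 2.72 and 3.47 in control and 4.67, 3.95 and 4.36 in Lhx6-/- replicates, a log2 difference of 0.39, the narrowest. It was 0.25 without control replicate 2. Each of the 5 ratios gave p = 0.1 in a two-sided exact permutation test of 3 against 3 libraries (0.1 after Benjamini-Hochberg adjustment over the 5), which is the smallest p this design allows. The differences are therefore reported as sizes, and the test could not have passed a threshold of 0.05.

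**Figure D4:**
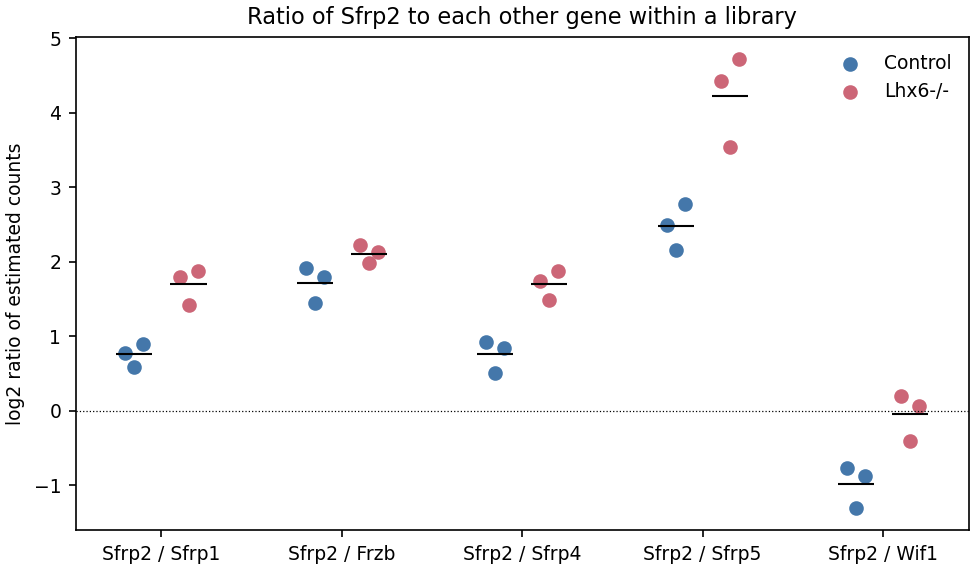
Log2 ratio of the estimated counts of Sfrp2 to each other member (y axis) within each of the 3 control (blue) and 3 Lhx6-/- (red) libraries. Bars are group means. The Lhx6-/- points lie above the control points in all 5 ratios, by 0.39 (Frzb) to 1.75 (Sfrp5).

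Other secreted or membrane-bound Wnt inhibitors were read beside the family, 15 genes of a list of 16. In edgeR 1 of them, Notum, passed the adjusted test and was lower, and 6 had an unadjusted p under 0.05. Of all tested genes 0.403% passed, 0.0795% on the lower side, and 9.81% had such an unadjusted p. After adjustment DESeq2 called 3 and limma 1, where over all genes they called 299 of 23594 and 82 of 20114. By the sign of the fold change 7 were higher and 8 lower. Their median was -0.07 on the log2 scale. Notum, an enzyme that removes the lipid from Wnt proteins and is itself induced by Wnt signalling, was at 18.5, 13.5 and 19.0 CPM in control and at 8.95, 9.12 and 9.12 CPM in Lhx6-/- replicates 1, 2 and 3. The groups did not overlap, and Notum fell by 0.90 on the log2 scale (standard error 0.14, adjusted p = 0.0145 from edgeR). Its adjusted p exceeded 0.05 without control replicate 3 (0.115), Lhx6-/- replicate 1 (0.0836) or Lhx6-/- replicate 2 (0.0967), all from edgeR, and with a covariate for Y-linked genes, added after seeing the data, its value was -0.51 on the log2 scale, at an adjusted p of 0.145 from edgeR. Shisa3, which keeps Frizzled receptors from the cell surface, met the fold and p rule with a mean of 2.31 CPM in control and 3.79 CPM in Lhx6-/- tissue, and its adjusted p was 0.441 from edgeR. It no longer met the rule without control replicate 2 or 3 or Lhx6-/- replicate 1 or 2, nor with the epithelium covariate, where its log2 fold change was 0.19 in place of 0.71, and with the Y-linked covariate it was 1.39. Kremen2, a receptor for the Dkk inhibitors, also met it, with levels of 0.450, 0.464 and 0.287 CPM in control and at most 3 estimated counts in each Lhx6-/- library, so no fold is given.

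Of 17 Wnt ligands tested, 6 were higher and 11 lower by sign, the median being -0.10 on the log2 scale, and Wnt4 alone had an adjusted p under 0.05. Unadjusted, p was under 0.05 for 6 of the 17 in edgeR and DESeq2 and 5 in limma. The share of all tested genes was 9.81% in edgeR. Wnt4 stood at 93.8, 101 and 101 CPM in control and at 66.5, 66.4 and 73.1 CPM in Lhx6-/- replicates 1, 2 and 3, with no overlap. It fell by 0.52 on the log2 scale (standard error 0.07, adjusted p = 0.00879 from edgeR). That p exceeded 0.05 without control replicate 3 (0.0837), Lhx6-/- replicate 1 (0.0709) or Lhx6-/- replicate 2 (0.0879), and with the epithelium covariate (0.102), all from edgeR. Wnt10a was at 44.0 ± 2.72 and 42.0 ± 3.84 CPM, Wnt6 at 50.8 ± 4.06 and 50.8 ± 3.82 CPM, and Wnt3a at 12.4 ± 2.99 and 12.2 ± 2.37 CPM in control and Lhx6-/- tissue (SD, n = 3 libraries each). Wnt7b, at 9.55 and 6.36 CPM, met the fold and p rule on the lower side, with an adjusted p of 0.473 from edgeR, and so did Wnt3, which was near the limit of detection at means of 0.261 and 0.0368 CPM. Wnt7b only just met the rule, at a 1.501-fold lower level. It was no longer past the rule without control replicate 2 or 3 or any 1 of the Lhx6-/- replicates. The same held with the other scalings and filters, with limma and with the replicate number as a block. It also held with the epithelium covariate, where the log2 fold change of Wnt7b was -0.10. Without control replicate 1 it was -0.85, with an adjusted p of 0.0327 from edgeR.

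Of 19 receptors and co-receptors, none had an adjusted p under 0.05 from edgeR or limma, 1 did from DESeq2, and none met the fold and p rule. Their median log2 fold change was 0.08, with 11 higher and 8 lower by sign. Unadjusted, p was under 0.05 for 4 of them with each of the 3 tools. The 12 genes that Wnt signalling itself induces had a median of -0.11, with 3 higher and 9 lower by sign, and Notum, which is on this list too, was the only one with an adjusted p under 0.05 in edgeR, where DESeq2 called 2 and limma 1. Unadjusted, p was under 0.05 for 4 of them in edgeR and limma and 3 in DESeq2. In edgeR 9.81% of all tested genes reached that. The groups did not overlap for 2 that were higher and 3 that were lower, against 7.86% and 7.68% of all tested genes. Among the lower was Nkd1, at 32.3 CPM in control and 23.3 CPM in Lhx6-/- tissue (adjusted p = 0.131 from edgeR). The 2 higher ones were Tcf7, at 55.05 and 64.06 CPM (adjusted p = 0.355 from edgeR), and Sp5, at 0.0988 and 0.298 CPM. Axin2, the most used readout of the canonical pathway, was chosen after its values were seen, at 20.3, 21.1 and 21.8 CPM in control and 19.2, 23.4 and 17.3 CPM in Lhx6-/- replicates 1, 2 and 3. Its groups overlapped.

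**Figure D5:**
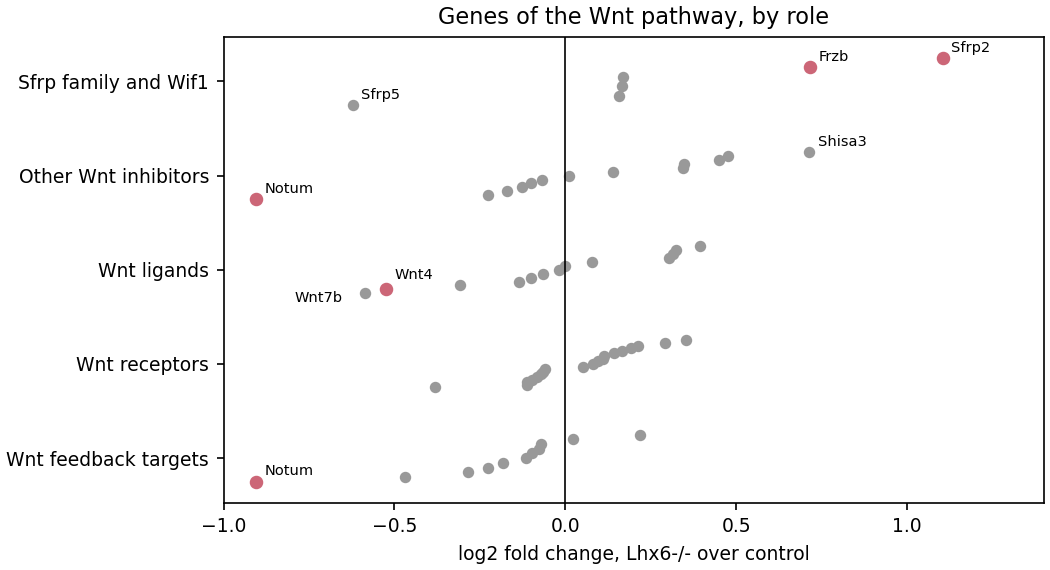
Log2 fold change, Lhx6-/- over control (x axis), of the family and of 53 other Wnt pathway genes grouped by role (y axis). Each point is 1 gene, red with an adjusted p under 0.05 from edgeR, and names mark genes that passed this or the fold and p rule. Genes under 1 CPM on average (7 genes) are not drawn. Sfrp2 and Frzb are the 2 red points on the right, and Notum and Wnt4 those on the left.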

How the data were processed

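The members and all gene lists were chosen with earlier results of these data known. Reads were single-end, 75 cycles. The authors trimmed and aligned them to mm10, with STAR 2.6.1d and Partek named in the submitters' processing notes, and deposited gene-level estimated counts, fractional in part and not normalised; the counter and annotation are not given in the sources used here. A second deposited table holds gene names and the authors' own comparison (ratios, fold changes, p-values), whose comparison columns were not used. Its group means, deposited as 1 + counts per 1000000, fixed the gene order (largest relative deviation 5.09e-08). The table numbers Lhx6-/- libraries one higher than the titles, whose numbers are used.

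Counts were rounded. The test was edgeR 4.0.16 (R 4.3.3; TMM, filterByExpr, robust quasi-likelihood), genotype only, two-sided, with Benjamini-Hochberg adjustment over 20114 genes. Standard errors are the fold change over the root of F. Exon lengths came from GENCODE vM21, where 23061 genes matched by name and position. Alternatives were other scalings, filters and dispersion, DESeq2 1.42.0, limma 3.58.1 (prior count 2), a replicate block, an epithelium covariate, leaving out each library and, added after seeing the data, a Y-linked covariate and the mesenchyme sum without Col1a1. Code was tested on simulated data. Genes named are the 6 members, Lhx6, Wnt10a, Wnt6, Wnt4, Wnt3a, Wnt genes past a threshold, and the 3 genes nearest each member in pattern (at least 10 CPM), of which 1 is not reported here; Axin2, Cldn5, Dlx1, Col1a1, Col9a1, Hapln1 and Col2a1 were named after their values were seen. Figures used matplotlib 3.10.9. Other experiments of the study were not used here.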

Additional observations from a re-analysis of the deposited data

How the results depend on the processing

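In 16 alternative fits the log2 fold change kept its sign in all fits for Sfrp2, Frzb, Sfrp4, Sfrp5 and Wif1, and turned for Sfrp1 in 1, with the epithelium covariate (-0.02). For Sfrp2 it was 1.11 with upper-quartile scaling (adjusted p = 0.0679 from edgeR), 1.10 with limma-trend (0.0738), 1.11 with no filter on low counts (0.0607), 1.11 with at least 10 counts in every library (0.0555) and 0.72 with the epithelium covariate (0.102), so 1 member passed in the first 4 of these and 0 in the last, where Frzb was at 0.65. The cause was not tested. Leaving out 1 library at a time gave 0.98 to 1.24 for Sfrp2, 0.66 to 0.80 for Frzb, -0.84 to -0.43 for Sfrp5, 0.09 to 0.29 for Sfrp1, 0.07 to 0.22 for Sfrp4 and 0.13 to 0.19 for Wif1, and 0 to 2 members that passed. The fold and p rule was met by 2 or 3 members in each alternative. The log2 differences of the 5 Sfrp2 ratios stayed positive when each library was left out, and when 0.5 was added to each count. With the longest transcript as length, the control level of Wif1 was 106 in place of 100 CPM per kilobase.

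Which libraries form the study's pairs is not stated. Over all tested genes, the deviations of same-numbered libraries from their group means correlated at 0.03, -0.03 and -0.03. These are the numbers of the titles, and pairs by the table's own numbers were not tried, so pairing is not excluded. For Sfrp2 the log2 deviations were 0.25, -0.272 and 0.022 in control and 0.235, -0.295 and 0.06 in Lhx6-/- replicates 1, 2 and 3. With the replicate number as a block, Sfrp5 had a log2 fold change of -0.64 (adjusted p = 0.0395 from edgeR), 3 members passed, and 134 genes in place of 81 were called. In that fit Sfrp2 was at 1.11, with a standard error of 0.08 in place of 0.17 (adjusted p = 4.0e-05 from edgeR). The number of genes called was 299 with DESeq2, 16 with the epithelium covariate, 359 with the Y-linked covariate, and 12 (without control replicate 3) to 127 when each library was left out. No other scaling moved the median of all genes by more than 0.016 on the log2 scale.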

Other observations

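For each member, the 3 genes with the most similar pattern over the 6 libraries were found among 9480 tested genes with a mean of at least 10 CPM, by the root-mean-square difference of centred log2 CPM. A smaller value means a closer pattern, and the members' own genotype difference is part of the pattern. For Sfrp2 these included Igfbp3, which encodes a binding protein of insulin-like growth factors (0.13, at 321 CPM in control and 623 CPM in Lhx6-/- tissue) and Col9a2, a chain of collagen IX (0.18, 42.9 and 93.9 CPM). For Frzb they were Rgs5, a regulator of G-protein signalling (0.07, 135 and 219 CPM), Gja4, a gap junction protein (0.08, 9.03 and 15.2 CPM), and Prnd, a prion-like protein (0.09, 16.9 and 26.3 CPM).

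For Sfrp5 the nearest genes were Pisd-ps2 (0.14, 11.3 and 8.68 CPM), Selenbp1 (0.17, 31.1 and 22.1 CPM) and Nkd1, an intracellular inhibitor that Wnt signalling induces (0.20, 32.3 and 23.3 CPM). The members that were close to even had closer neighbours, which follows from the measure, since patterns with little change differ little from each other. These were Evc, Tril and Adamts10 for Sfrp1 (0.03 each), Lrfn3, Cnpy3 and Zfp407 for Sfrp4 (0.02 to 0.03), and Tardbp, Plpbp and Crebzf for Wif1 (0.02 to 0.03). With 6 libraries many genes can share a pattern, and no test was made of these likenesses.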
